A study of Homo sapiens with 8 samples.

Results

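The genes described are the enzymes of cholesterol and fatty acid synthesis, together with the sterol sensors, transcription factors and a sterol carrier that accompany them, chosen by symbol from the annotation of the array. Of 29 such genes 28 had a probe set, and FDFT1 was not analysed here. These 28 of 18239 measured genes were read by 74 of the 45253 probe sets with 1 gene symbol, and the brightest probe set of a gene, by its mean level, stood for it. The cells were NS-SV-AC, a single immortalised line derived from acinar cells of the human salivary gland, the cells that secrete saliva. They received 20 ng/ml of TNF-α, an inflammatory cytokine, or bovine serum albumin (BSA), the protein control, for 2, 6, 12 or 24 h. Each of the 8 conditions was measured on 1 Affymetrix array, so no condition has a replicate. Values are log2 RMA intensities, and a difference of 1 is 2-fold.

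Cholesterol is built from acetyl-CoA through mevalonate, isoprenoid diphosphates, squalene and lanosterol, and fatty acids are built from acetyl-CoA through malonyl-CoA. The enzymes are transcribed largely under the SREBP transcription factors, which are held in the endoplasmic reticulum by SCAP and the INSIG proteins while sterols are plentiful, and which are released and cleaved when sterols run low. SREBP-2 acts mainly on sterol genes and SREBP-1 mainly on fatty acid genes. Secretory epithelium uses these lipids for its membranes.

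The promoter bases of 5 members are shown. Of these genes 4 had lower values on the 24 h BSA array, as did most members, and STARD4 had higher values with TNF-α. The 5 were picked, so they need not be typical of the members that fell. Each sequence is the 250 bases before the start site, read 5′ to 3′ on the strand of the gene. The source is RefSeq GRCh38.p14, where 25 of the 28 measured members had an entry. Capitals mark the core of the sterol regulatory element, TCACNCCAC, the site that SREBPs bind, and the CCAAT box, bound by NF-Y, which appears as ATTGG where it lies on the other strand.
SREBF2, chr22:41832855-41833104, plus strand: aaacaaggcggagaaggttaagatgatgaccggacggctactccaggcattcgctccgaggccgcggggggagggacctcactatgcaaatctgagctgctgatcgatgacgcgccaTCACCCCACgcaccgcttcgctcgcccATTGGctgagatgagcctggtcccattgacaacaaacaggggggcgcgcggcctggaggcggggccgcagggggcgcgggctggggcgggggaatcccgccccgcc
MSMO1, chr4:165327419-165327668, plus strand: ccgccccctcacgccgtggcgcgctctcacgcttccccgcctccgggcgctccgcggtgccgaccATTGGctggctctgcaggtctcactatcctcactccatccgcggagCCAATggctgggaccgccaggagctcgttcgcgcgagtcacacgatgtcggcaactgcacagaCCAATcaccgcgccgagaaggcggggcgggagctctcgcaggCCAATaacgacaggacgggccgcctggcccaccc
EBP, chrX:48521558-48521807, plus strand: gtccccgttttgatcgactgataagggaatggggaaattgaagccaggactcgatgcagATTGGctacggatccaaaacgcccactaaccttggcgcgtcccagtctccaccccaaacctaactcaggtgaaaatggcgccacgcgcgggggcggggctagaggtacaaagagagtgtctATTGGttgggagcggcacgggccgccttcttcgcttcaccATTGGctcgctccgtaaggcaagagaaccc
INSIG1, chr7:155297628-155297877, plus strand: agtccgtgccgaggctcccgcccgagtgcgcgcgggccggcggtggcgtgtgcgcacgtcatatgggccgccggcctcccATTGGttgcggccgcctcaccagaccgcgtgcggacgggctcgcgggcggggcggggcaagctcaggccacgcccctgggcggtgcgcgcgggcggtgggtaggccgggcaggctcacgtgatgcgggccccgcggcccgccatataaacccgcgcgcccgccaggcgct
STARD4, chr5:111512536-111512785, minus strand: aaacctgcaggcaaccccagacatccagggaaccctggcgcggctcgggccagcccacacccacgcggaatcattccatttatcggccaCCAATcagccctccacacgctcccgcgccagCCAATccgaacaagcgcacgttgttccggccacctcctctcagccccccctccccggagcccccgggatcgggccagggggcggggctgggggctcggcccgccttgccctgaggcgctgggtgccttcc

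The sterol element core was found on either strand in 1 of the 25 members with an entry (4.0%), SREBF2, where its first base lies 133 bases before the start, and in 1.21% of the 14492 array genes with an entry. A CCAAT box was found in 19 of 25 members (76.0%) and in 40.5% of these genes. The GC box GGGCGG was found in 24 of 25 members (96.0%) against 63.7%, and the E-box CACGTG in 3 (12.0%) against 9.81%. A κB motif, the site of NF-κB, was found in 3 members (12.0%), MVK, SREBF1 and SREBF2, against 7.68% of genes, and not in the window of STARD4. In SREBF2 the sterol element and the CCAAT box do not overlap, while the κB match overlaps GC boxes. These are matches of letters in a short window, and several members have more than 1 start site, of which any counted.

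The TNF-α array at 24 h carried signs of degraded RNA. The 3′ end of GAPDH read 6.28 above its 5′ end there and 0.20 to 0.37 above on the other 7 arrays, for ACTB the gap was 6.88 against 2.59 to 3.47, and the mean correlation with the other arrays across genes was 0.925 against 0.968 to 0.978. The BSA array at 24 h had a GAPDH gap of 0.21, an ACTB gap of 3.47 and a mean correlation of 0.968. Of 13 measured acinar markers 7 lay above 3.76, the lower quartile of all genes, among them the water channel AQP5 with a mean of 4.05, while PRB1 (3.55) and MUC7 (2.88) lay below it. Of 7 duct markers 4 lay above it, with KRT18 (9.76) and KRT8 (7.65) highest and KRT7 (3.34) below. Of 5 general epithelial markers 2 lay above it, and EPCAM (2.98), CDH1 (3.49) and ESRP1 (3.41) lay below. Of 6 fibroblast markers 5 lay above it, from COL1A1 (3.85) to COL3A1 (9.34), and COL1A2 (3.46) lay below. Of 6 leukocyte markers 2, CD68 (5.33) and MS4A1 (4.14), lay above it and 4 below, among them PTPRC (3.13) and CD14 (2.83).

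How did these genes change with time in each arm? From 2 to 12 h the pathway moved little in either arm, and on the 24 h BSA array most of it was lower. On that array the members with the largest differences from 2 h were INSIG1 (−2.11), FASN (−1.96), EBP (−1.56), MSMO1 (−1.55) and HMGCS1 (−1.53), from the sterol feedback, fatty acid and sterol arms of the pathway alike. In all, 11 of 28 members were at least 2-fold lower than at 2 h and 0 at least 2-fold higher, where 1.83% of all genes were that much lower and 2.54% that much higher. The median of the members was −0.81, and that of all genes −0.03. A lower value means less of the RNA in equal amounts of total RNA, and a fall per cell cannot be told apart from a fall in the share of cells that make it. The summed level of the 7 duct markers was also lower on this array, 33.4 against 35.9 to 37.2 on the 6 arrays of 2 to 12 h. Most of this came through KRT8, which read 6.37 against 8.59 to 8.91. Lower sums were not particular to the duct list. The acinar sum was 48.3 against 48.6 to 50.1, and the basal and myoepithelial sum 27.5 against 28.2 to 28.8. The epithelial sum was 21.0 against 21.7 to 22.2, and the leukocyte sum 21.4 against 21.6 to 22.6. The fibroblast sum was 35.3 against 35.4 to 36.0. The endothelial (16.1) and adipocyte (20.7) sums equalled their lowest earlier value after rounding. Of the fibroblast markers COL3A1 read 9.93 there against 8.91 to 9.40, and LUM 6.87 against 7.51 to 8.20. On the 24 h TNF-α array the duct markers summed to 30.2. The fibroblast markers summed to 39.2 there against 35.4 to 36.0 at 2 to 12 h. A high sum was not particular to fibroblast markers, as all lists but the duct markers were highest on that array. The acinar sum was 51.6 against 48.6 to 50.1, the epithelial sum 23.1 against 21.7 to 22.2. The basal and myoepithelial sum was 31.4 against 28.2 to 28.8, and the adipocyte sum 22.8 against 20.7 to 21.2. The part of these markers in the 24 h results was not tested.

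The 6 arrays of 2, 6 and 12 h give a spread against which the 24 h BSA array can be set. The 24 h BSA value lay below all 6 in 23 of 28 members (82.1%), and in 29.0% of all genes. It lay above all 6 in 1 member (3.57%), INSIG2, and in 24.6% of all genes. The other members that were not below were PMVK, HSD17B7, SCAP and STARD4.

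**Figure D1:**
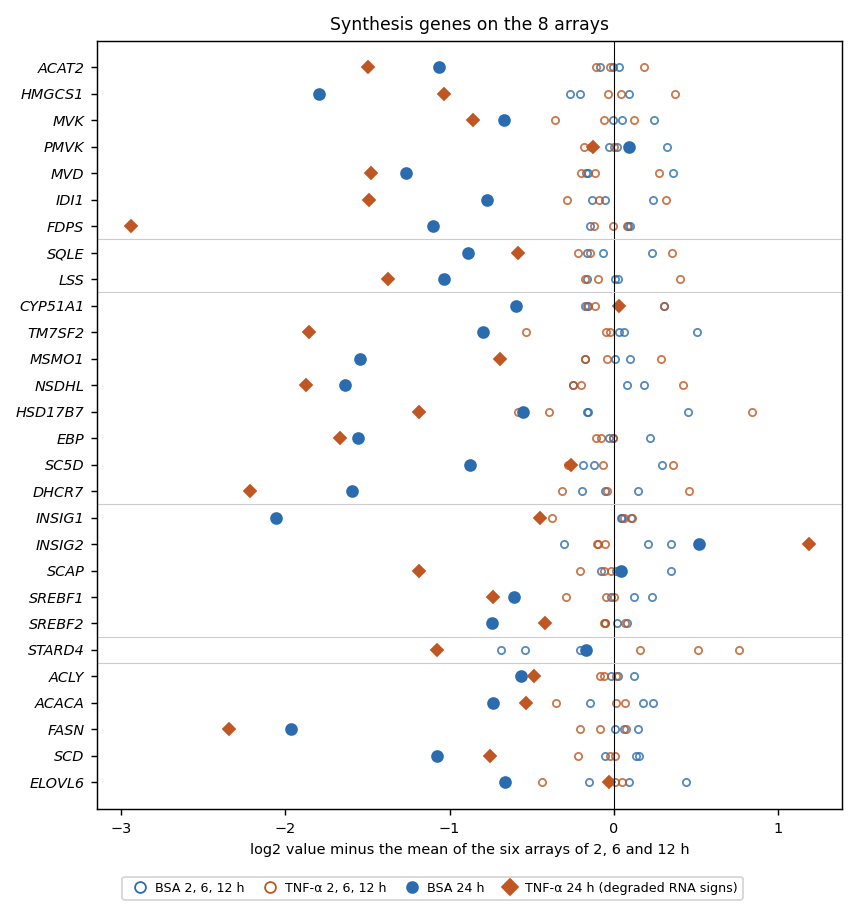
Each row is a gene, ordered by role, and each point is 1 array, placed by its log2 value minus the mean of the arrays of 2, 6 and 12 h; open circles are those 6 arrays, filled circles BSA at 24 h and diamonds TNF-α at 24 h. The 24 h BSA array lies to the left of all open circles in 23 of 28 genes, with INSIG1 and FASN farthest.

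A limma fit with treatment and a term for the 24 h array of each arm set the 24 h BSA array against the mean of BSA at 2, 6 and 12 h. This fit was chosen after the data were seen. Its spread comes from the 6 earlier arrays, and the lone 24 h array is assumed to vary like them. In it 14 of 28 members fell and 0 rose at an adjusted p under 0.05, where 2.7% of all genes were lower and 3.41% higher (492 and 622 of 18239; 570 and 472 after quantile normalisation again). The number of members called ranged from 12 to 15 over other scalings, filters, weights and the mean of probe sets. Without 1 array it was 8 (BSA 2 h), 9 (BSA 6 h), 7 (BSA 12 h), 12 (TNF-α 2 h), 9 (TNF-α 6 h) or 12 (TNF-α 12 h). Without both arrays of a time it was 4 (2 h), 3 (6 h) or 0 (12 h), and with all arrays 22 of 28 members had an unadjusted p under 0.05, as did 4208 of all 18239 genes. Over the 17 settings of this fit FASN, EBP and INSIG1 passed in 16 each, SREBF2 in 12, ACLY in 9, MVD in 7 and SREBF1 in 3. The 17 include the main fit and the setting without the 24 h TNF-α array. That array has its own term, so the setting repeats the main fit and is no separate check.

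The opening steps, from acetyl-CoA to farnesyl diphosphate, held 7 members, of which ACAT2, HMGCS1, MVD and FDPS fell on the 24 h BSA array. HMGCS1, which makes HMG-CoA, read 10.13, 10.19, 10.49 and 8.60 in BSA at 2, 6, 12 and 24 h, and 10.36, 10.44, 10.77 and 9.36 in TNF-α. Both 24 h arrays were below all the others, and in BSA it fell by 1.67 ± 0.21 (SE; limma, adjusted p = 0.0151). ACAT2, which joins acetyl-CoA units in the cytosol, read 11.59, 11.51, 11.63 and 10.53 in BSA and 11.57, 11.49, 11.78 and 10.10 in TNF-α, and in BSA it fell by 1.04 ± 0.13 (adjusted p = 0.0167). Its 6 earlier arrays stayed within 11.49 to 11.78. FDPS, farnesyl diphosphate synthase, read 10.06, 10.07, 9.83 and 8.87 in BSA and 10.05, 9.85, 9.97 and 7.03 in TNF-α, and in BSA it fell by 1.11 ± 0.14 (adjusted p = 0.0152). Its TNF-α value at 24 h was the lowest of its 8 values, on the array with the wide GAPDH gap. MVD, which decarboxylates mevalonate diphosphate, read 7.15, 7.67, 7.14 and 6.04 in BSA and 7.11, 7.19, 7.58 and 5.83 in TNF-α, and in BSA it fell by 1.28 ± 0.27 (adjusted p = 0.0474).

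The remaining members of these steps did not pass. IDI1, the isopentenyl diphosphate isomerase, read 10.11, 10.19, 10.48 and 9.47 in BSA and 10.15, 9.96, 10.56 and 8.75 in TNF-α, a 24 h BSA difference of −0.80 ± 0.25 (adjusted p = 0.127). It was highest at 12 h in both arms. MVK, mevalonate kinase, read 5.97, 6.22, 6.03 and 5.31 in BSA and 5.92, 5.62, 6.10 and 5.12 in TNF-α (−0.76 ± 0.20, adjusted p = 0.0803). PMVK, the kinase that follows it, stayed between 6.61 and 7.11 on all 8 arrays (−0.02 ± 0.16, adjusted p = 0.972). Its other 2 probe sets differed by −0.79 and −0.44 without passing (adjusted p = 0.189 and 0.572 over all probe sets), so its value depends on the probe set.

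Between squalene and lanosterol, SQLE and LSS were lower at 24 h in BSA without passing. SQLE, squalene epoxidase, read 11.06, 11.16, 11.46 and 10.34 in BSA and 11.01, 11.08, 11.58 and 10.64 in TNF-α (−0.89 ± 0.25, adjusted p = 0.104). LSS, lanosterol synthase, read 6.90, 7.07, 7.09 and 6.03 in BSA and 6.89, 6.97, 7.47 and 5.69 in TNF-α (−0.99 ± 0.23, adjusted p = 0.0608). In both genes 24 h was below the other arrays of the same arm and 12 h above them.

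Of 8 members between lanosterol and cholesterol, MSMO1, NSDHL, EBP and DHCR7 fell, and all 8 were below their 2 h value on the 24 h BSA array. EBP, a sterol isomerase, had the steadiest earlier values of these: 9.65, 9.88, 9.63 and 8.10 in BSA, and 9.58, 9.55, 9.65 and 7.99 in TNF-α, and in BSA it fell by 1.63 ± 0.13 (adjusted p = 0.00707). Its other probe set read 8.05 in BSA and 7.34 in TNF-α at 24 h. NSDHL, which removes methyl groups from sterols together with MSMO1, read 8.71, 9.04, 9.14 and 7.32 in BSA and 8.71, 8.76, 9.38 and 7.08 in TNF-α (it fell by 1.65 ± 0.30, adjusted p = 0.0348). MSMO1, the methylsterol oxidase, read 10.93, 10.75, 11.02 and 9.38 in BSA and 10.88, 10.75, 11.21 and 10.23 in TNF-α (it fell by 1.52 ± 0.19, adjusted p = 0.0166). DHCR7, which reduces dehydrocholesterol to cholesterol, read 8.25, 8.59, 8.39 and 6.85 in BSA and 8.13, 8.40, 8.90 and 6.23 in TNF-α (it fell by 1.56 ± 0.29, adjusted p = 0.0369). In each of these 4 genes both 24 h arrays lay below the 6 earlier ones.

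The other 4 did not pass, and their patterns differed. TM7SF2, a sterol reductase, read 7.10, 7.54, 7.07 and 6.24 in BSA and 7.01, 6.99, 6.50 and 5.18 in TNF-α (−0.999 ± 0.27 in BSA, adjusted p = 0.0874). HSD17B7, a keto-reductase of the demethylation steps, read 5.61, 5.62, 6.23 and 5.22 in BSA and 5.38, 5.19, 6.62 and 4.59 in TNF-α (−0.60 ± 0.56, adjusted p = 0.604). It was highest at 12 h in both arms, and at 12 h it was the only member at least 2-fold from its 2 h value, in TNF-α. CYP51A1, the lanosterol demethylase, lay between 10.56 and 11.04 on the earlier arrays and at 10.14 in BSA and 10.77 in TNF-α at 24 h (−0.59 ± 0.26, adjusted p = 0.238). SC5D, a sterol desaturase, was 9.11 at 2 h and 8.35 at 24 h in BSA (−0.88 ± 0.28, adjusted p = 0.133).

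Among the sterol sensors and transcription factors, INSIG1, SREBF1 and SREBF2 fell, and SCAP and INSIG2 did not pass. INSIG1, itself a target of SREBP and the protein that retains SCAP, read 10.46, 10.51, 10.45 and 8.35 in BSA and 10.47, 10.03, 10.52 and 9.96 in TNF-α. In BSA it fell by 2.12 ± 0.20 (adjusted p = 0.00997), the largest fall of the 28 members, and all 3 of its probe sets were lower at 24 h than at 2 h, by −2.11, −2.25 and −1.99. INSIG2, which has the same role and is not driven by SREBP in the same way, read 6.65, 6.14, 6.79 and 6.96 in BSA and 6.35, 6.34, 6.39 and 7.63 in TNF-α (0.43 ± 0.24 in BSA, adjusted p = 0.354). The INSIG genes thus lay on opposite sides of their earlier arrays at 24 h in BSA. SREBF2, which encodes SREBP-2 and carries the sterol element shown above, read 6.77, 6.83, 6.70 and 6.01 in BSA and 6.70, 6.82, 6.69 and 6.33 in TNF-α (it fell by 0.76 ± 0.11, adjusted p = 0.0205). Its other 2 probe sets differed by −0.30 and −0.32 (adjusted p = 0.181 and 0.178 over all probe sets) and did not pass. SREBF1, which encodes SREBP-1, read 6.74, 6.99, 6.88 and 6.15 in BSA and 6.76, 6.47, 6.71 and 6.02 in TNF-α (it fell by 0.71 ± 0.15, adjusted p = 0.0498). Its other 2 probe sets differed by −0.15 and −0.11 (adjusted p = 0.662 and 0.727 over all probe sets) and did not pass. Over the 17 settings of the fit its difference ran from −0.80 to −0.32 (adjusted p from 0.0388 to 0.176). SCAP, the escort of the SREBPs, read 7.22, 7.65, 7.31 and 7.34 in BSA and 7.24, 7.28, 7.09 and 6.11 in TNF-α (−0.05 ± 0.18 in BSA, adjusted p = 0.906).

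The 5 fatty acid members were all lower on the 24 h BSA array, and FASN, SCD and ACLY fell. FASN, fatty acid synthase, read 7.53, 7.59, 7.67 and 5.56 in BSA and 7.44, 7.32, 7.60 and 5.18 in TNF-α. In BSA it fell by 2.03 ± 0.13 (adjusted p = 0.00544), and its 6 earlier values spanned only 7.32 to 7.67. SCD, the stearoyl-CoA desaturase, read 11.35, 11.14, 11.33 and 10.12 in BSA and 11.17, 10.98, 11.20 and 10.44 in TNF-α (it fell by 1.15 ± 0.14, adjusted p = 0.0147), and its other 3 probe sets were lower by more (−1.74 to −2.18). ACLY, which cleaves citrate to acetyl-CoA, read 10.45, 10.59, 10.49 and 9.90 in BSA and 10.38, 10.41, 10.48 and 9.98 in TNF-α (it fell by 0.61 ± 0.10, adjusted p = 0.0301), with −0.37 on its other probe set (adjusted p = 0.131 over all probe sets). ACACA, acetyl-CoA carboxylase, read 8.55, 8.17, 8.49 and 7.58 in BSA and 8.33, 7.96, 8.38 and 7.78 in TNF-α, without passing (−0.83 ± 0.22, adjusted p = 0.0807). ELOVL6, a fatty acid elongase, read 7.82, 7.58, 8.17 and 7.07 in BSA and 7.74, 7.29, 7.78 and 7.70 in TNF-α, also without passing (−0.79 ± 0.28, adjusted p = 0.158).

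**Figure D2:**
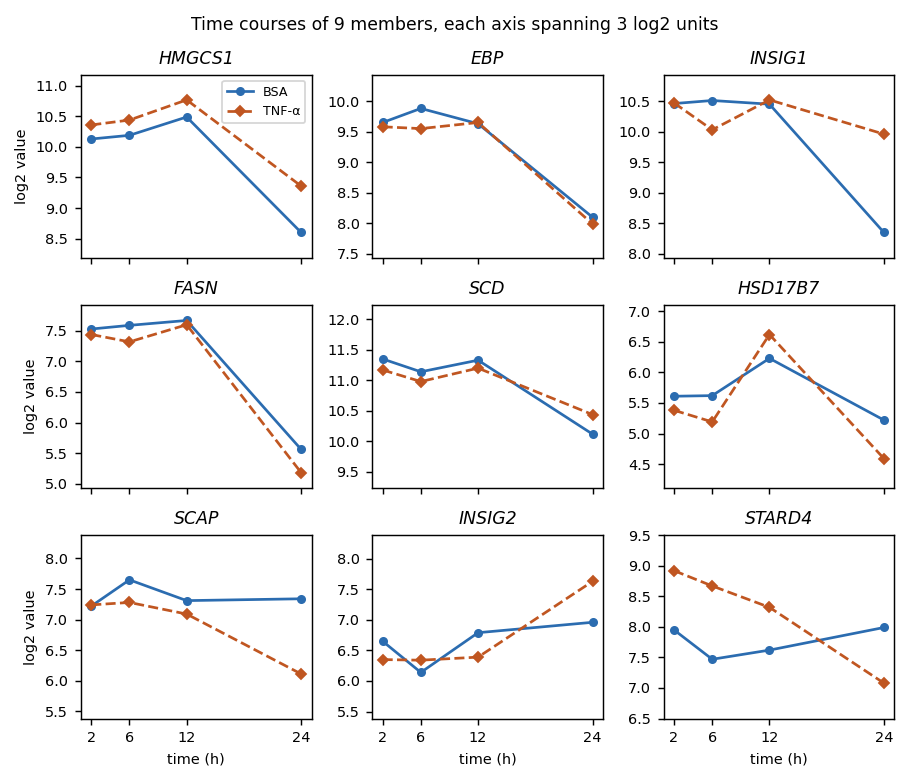
Log2 values (vertical axes, each spanning 3 log2 units) of 9 genes against time in hours, with circles for BSA, diamonds for TNF-α and 1 array per point. EBP, FASN and SCD are level to 12 h, and HMGCS1 is higher at 12 h than at 2 h in both arms. These genes are low at 24 h in both arms. INSIG1 is low at 24 h in BSA, and STARD4 is higher with TNF-α from 2 to 12 h.

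Before 24 h the members of each arm differed little from their 2 h array. At 6 h in BSA 19 of 28 members were above the 2 h value and 0 were 2-fold higher or lower, where 0.477% of all genes were 2-fold higher and 0.965% lower. At 12 h in BSA 18 were above and 0 were 2-fold from it (0.175% and 0.345% of genes). At 6 h in TNF-α 11 were above and 0 were 2-fold from it (1.12% and 1.1%). At 12 h in TNF-α 21 of 28 were above, with a median of 0.13, and HSD17B7 alone was 2-fold higher (1.24) and 0 were 2-fold lower (1.17% and 1.22% of genes). DHCR7 (0.78), NSDHL (0.67), LSS (0.58) and SQLE (0.56) followed it at 12 h, and their BSA differences at the same time were 0.14, 0.43, 0.18 and 0.39.

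At 24 h in TNF-α, on the array with the degraded RNA signs, 13 of 28 members were at least 2-fold below the 2 h TNF-α array. INSIG2 alone (1.28) was at least 2-fold above it, where 7.29% of all genes were that much lower and 11.4% that much higher. The fit with a term for this array called 19 members lower and 1 higher (11.2% and 23.7% of genes, 2048 and 4331 of them; 2545 and 2826 after quantile normalisation again). FDPS (−3.01), FASN (−2.26) and DHCR7 (−1.89) had the lowest differences from 2 h. The median gene lay 0.15 higher on this array than on the earlier TNF-α arrays. The part of the RNA in these differences was not tested.

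Probe sets of the same gene were also set side by side. In the 23 members with several, the range between probe sets of the 24 h to 2 h difference had a median of 0.47 and a maximum of 1.11 in BSA, and a median of 1.06 and a maximum of 6.44 in TNF-α. The probe sets of MSMO1 read 10.23, 5.17, 2.80 and 3.71 on the 24 h TNF-α array and 9.38, 7.78, 7.77 and 3.30 on the 24 h BSA array. For ACLY the 24 h to 2 h differences in TNF-α were −0.40 and −4.25, and in BSA −0.55 and −0.36. Over all 74 probe sets of the members, 64 were lower at 24 h than at 2 h in BSA and 27 of them at least 2-fold. Probe sets of a member pointed in opposite directions by over 1 only in comparisons that use the 24 h TNF-α array. This was so for ACLY, ELOVL6, MSMO1, PMVK, SC5D, SQLE, SREBF1, STARD4 and TM7SF2. The cause of this spread was not tested, and the spread over all genes with several probe sets is not given here.

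**Figure D3:**
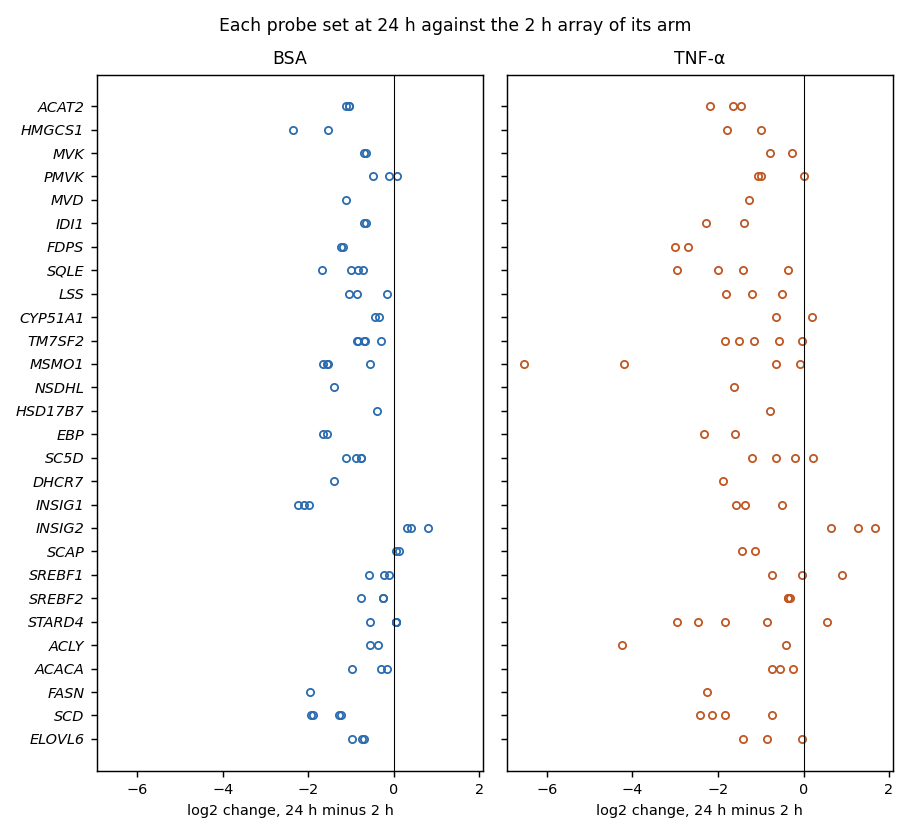
Log2 difference between the 24 h and 2 h arrays (horizontal axes) for each probe set of each gene, BSA on the left and TNF-α on the right. Probe sets of a gene lie within 1.11 of each other in BSA and spread by up to 6.44 in TNF-α.

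A straight trend over the 4 times, fitted with limma on the log2 of the hours, called 0 members in BSA, 0 in TNF-α and 0 for the difference between the arms. At an unadjusted p under 0.05 the numbers were 0, 3 and 1 of 28, and 654, 1938 and 675 of all 18239 genes. Over all genes it called 0% higher and lower in BSA, 0.00548% higher and 0% lower in TNF-α, and 0% either way for the difference. In BSA 25 of 28 slopes were negative, with a median of −0.19 per doubling of time, and without the 24 h pair 7 of 28 were, with a median of 0.03.

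How did TNF-α compare with BSA at the same time? STARD4, which carries cholesterol between membranes inside the cell, was the member that stood out. It read 7.95, 7.47, 7.62 and 7.99 in BSA at 2, 6, 12 and 24 h and 8.92, 8.67, 8.32 and 7.08 in TNF-α. All 3 TNF-α values up to 12 h were above all 4 BSA values, and the 24 h TNF-α value was below them. The differences were 0.97, 1.20, 0.71 and −0.91.

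Over 2, 6 and 12 h STARD4 rose with TNF-α by 0.96 ± 0.11 (SE, 3 pairs of arrays; limma, adjusted p = 0.0464), higher in 3 of 3 pairs. It was the only one of the 28 members to pass, where 0.318% of all genes rose and 0.0493% fell. The call lies near the threshold: with each array centred on its median the adjusted p was 0.0508, and without the 6 h pair it was 0.394 with a difference of 0.84. Without the 2 h or 12 h pair it was 0.00532 and 0.0309. Each fit without a pair rests on 1 residual degree of freedom. Over all 4 times, the comparison planned as the main one, 0 members passed (0.0164% of genes rose and 0% fell). The difference of STARD4 was then 0.49 ± 0.37 (adjusted p = 0.661). The fit over 2, 6 and 12 h was planned only as a setting of that comparison, without its 24 h pair.

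The 5 probe sets of STARD4 were each higher with TNF-α at 2, 6 and 12 h. Fitted one by one over these times with all probe sets of the array, they differed by 0.96 (adjusted p = 0.0577), 1.03 (0.0443), 1.31 (0.0302), 1.21 (0.0189) and 0.43 (0.292), from the brightest probe set to the dimmest. The dimmest had values from 3.35 to 4.85. On the 24 h TNF-α array they diverged, reading 7.08, 7.20, 3.68, 3.95 and 4.85.

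**Figure D4:**
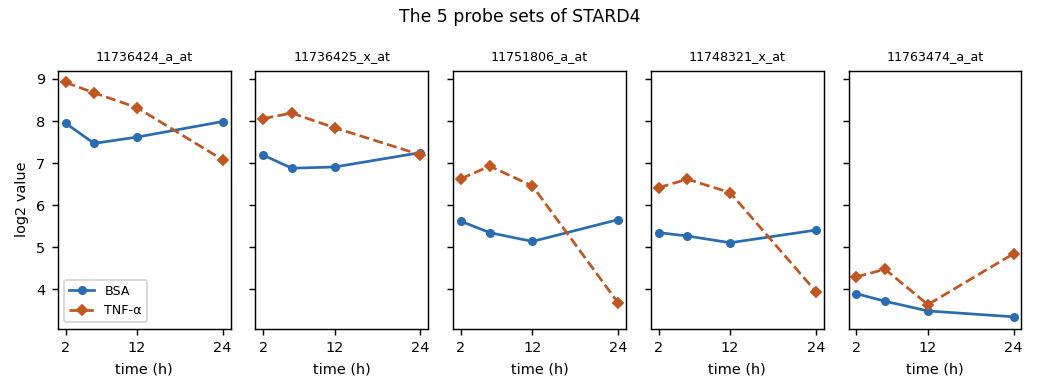
Log2 values of the 5 probe sets of STARD4 (1 panel each, brightest on the left) against time in hours, circles for BSA and diamonds for TNF-α. In every panel the TNF-α points lie above the BSA points at 2, 6 and 12 h.

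Among the other members no TNF-α difference reached 2-fold before 24 h. At 2 h 0 members were 2-fold higher or lower (0.493% and 0.0439% of genes) and the median was −0.05. At 6 h STARD4 was the only member 2-fold higher and 0 were lower (1.38% and 0.384%), but 24 of 28 members (85.7%) were below BSA, with a median of −0.22, where 53.0% of all genes were below. The lowest at 6 h were MVK (−0.60), TM7SF2 (−0.55), SREBF1 (−0.52), INSIG1 (−0.48) and MVD (−0.48). These gaps arose in different arms. Against 2 h, MVD was 0.51 in BSA and 0.08 in TNF-α, and TM7SF2 0.45 and −0.01. INSIG1 was 0.05 in BSA and −0.44 in TNF-α, MVK 0.25 and −0.30, and SREBF1 0.24 and −0.29. At 12 h 0 members were 2-fold higher or lower (1.29% and 0.839%), 16 of 28 were above BSA, and the median was 0.06. DHCR7 (0.51) and MVD (0.44) were then above BSA and TM7SF2 (−0.57) below it. The lower values of 6 h were thus not seen at 12 h over the members as a set. By role, the 5 fatty acid members were at or below BSA at 12 h, as were 4 of the 5 sterol sensors and transcription factors.

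Some members kept the same side of BSA without passing. HMGCS1 was above BSA at 2, 6, 12 and 24 h, by 0.23, 0.25, 0.28 and 0.76 (0.26 ± 0.07 over 2 to 12 h, adjusted p = 0.244). TM7SF2 was below BSA at the same times, by −0.09, −0.55, −0.57 and −1.06 (−0.40 ± 0.12 over 2 to 12 h, adjusted p = 0.254). PMVK was also below at each time (−0.21 ± 0.08 over 2 to 12 h, adjusted p = 0.324). These 3 were the members with an unadjusted p under 0.05 over the 4 times, where their adjusted p was 0.652 each; 1369 of all 18239 genes had such a p. The 5 fatty acid members were each at or below BSA at 2, 6 and 12 h, farthest for ELOVL6 at 12 h (−0.39), and none passed (adjusted p from 0.313 to 0.675 over 2 to 12 h).

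**Figure D5:**
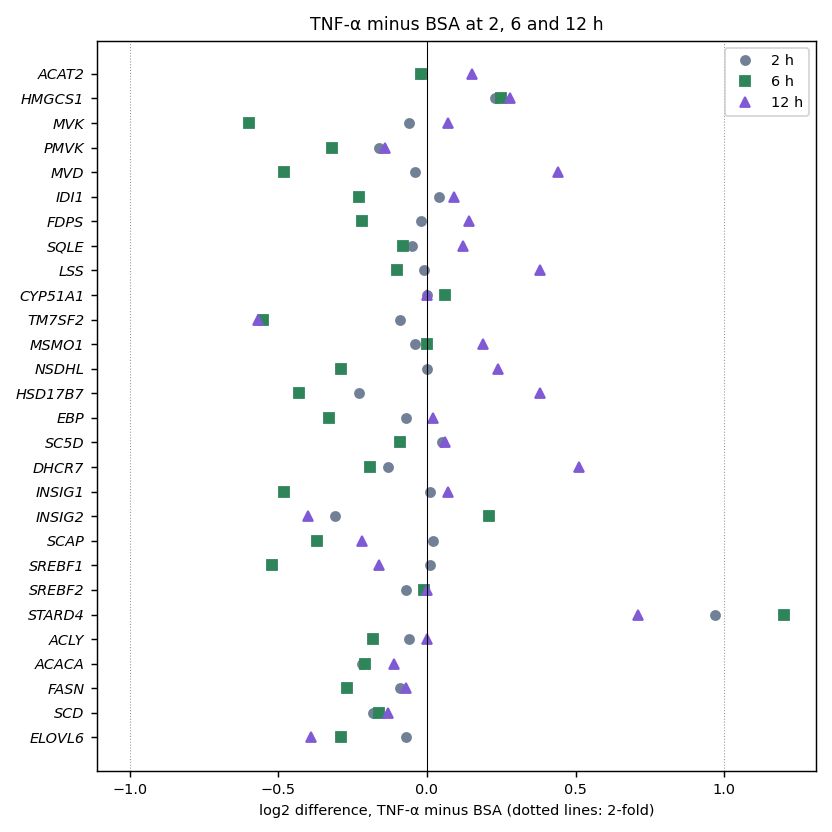
Log2 difference TNF-α minus BSA (horizontal axis) of each gene at 2 h (circles), 6 h (squares) and 12 h (triangles), with dotted lines at 2-fold. STARD4 lies far to the right of the other genes, and 24 of 28 squares lie left of 0.

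At 24 h INSIG1 was 1.61 higher with TNF-α, and FDPS (−1.84), SCAP (−1.23) and TM7SF2 (−1.06) were at least 2-fold lower, where 6.1% of all genes were higher and 6.67% lower. The 3 probe sets of INSIG1 gave 1.61, 0.75 and 0.35, all above BSA. These values set the degraded array against the BSA array on which the pathway was low, and they share both with the comparisons above. The median gene was 0.20 higher with TNF-α at 24 h, and the median member −0.16.

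Genes of the surrounding pathways, listed by role with earlier results of these data known, are given for comparison. In the fit of the 24 h BSA array, in which 2.7% of all genes fell and 3.41% rose, 1 of 6 other sterol synthesis genes fell: ERG28, a scaffold of the demethylating enzymes (−1.43 ± 0.14, adjusted p = 0.0103). Of 14 genes of sterol uptake and transport SCARB1, the HDL receptor, fell (−1.26 ± 0.20, adjusted p = 0.0248), and of 12 genes of efflux, LXR and esterification LPCAT3, a phospholipid acyltransferase, fell (−1.18 ± 0.13, adjusted p = 0.0123). Of 9 genes of SREBP processing and reductase degradation ERLIN1 rose (0.48 ± 0.10, adjusted p = 0.0476) and 0 fell. Of 23 other fatty acid synthesis and desaturation genes FADS2, a fatty acid desaturase, fell (−1.49 ± 0.10, adjusted p = 0.00544) and GPAM, which starts glycerolipid synthesis, rose (0.67 ± 0.10, adjusted p = 0.0239). Of 12 fatty acid oxidation genes ETFB, a subunit of the electron transfer flavoprotein, fell (−1.62 ± 0.20, adjusted p = 0.0157). The medians of these 6 lists in that fit were −0.57, 0.10, −0.18, 0.11, −0.22 and −0.25, where the median of the 28 members was −0.88 and that of all genes −0.02.

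With TNF-α 0 genes of these 6 lists passed over 2, 6 and 12 h. Single differences past 2-fold before 24 h were seen in ABCG1, a sterol exporter, which was −0.20, 0.16 and 2.00 from BSA at 2, 6 and 12 h, and in PPARGC1A, a coactivator of oxidative genes, which was −0.51, −1.90 and −2.17. GRAMD1A, a sterol transfer protein, was −0.27, 1.10 and 0.98, the fatty acid desaturase gene FADS3 0.30, 0.93 and 1.02, and SCD5, a relative of SCD, −0.08, −0.74 and −1.12. SEC24D, a coat protein of the vesicles that leave the endoplasmic reticulum, was −1.15 and −1.18 from its 2 h value at 6 and 12 h in TNF-α and −0.53 and −0.80 in BSA. PPARA, a regulator of fatty acid oxidation, was −1.06 at 6 h in TNF-α and −0.62 in BSA.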

How the data were processed

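Expression of NS-SV-AC cells was measured on 8 Affymetrix arrays, 1 for each treatment and time. The deposited values are log2 intensities per probe set that the authors made with RMA, per the submitters' processing notes, with software version, build and filters not given in the sources used here. Probe sets were named by the platform annotation, and those with several symbols (1327) or none listed (2713) were left out of the gene fits. The brightest probe set stood for a gene. No further scaling was applied.

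Fits used limma 3.58.1 in R 4.3.3 (lmFit, eBayes, two-sided), over all 18239 genes with Benjamini-Hochberg adjustment. The TNF-α comparison over 4 times, the slopes and the 24 h BSA fit were tested on simulated data. The 2 to 12 h fit and the 24 h TNF-α fit were not. In the simulation every array of a gene, also at 24 h, had the same independent spread. It therefore cannot show whether the lone 24 h array varies like the others, and it held no degraded array. With 1 array per condition, single differences have no test, and p-values rest on 2 to 4 residual degrees of freedom. Where a time was left out of the 2 to 12 h fit, they rest on 1. No condition was repeated, so arrays of different times stand in for replicates in these fits. In the TNF-α comparisons the spread is how far the difference from BSA changed between times. In the 24 h fits it is how far the arrays of 2 to 12 h differed within an arm. In the slopes it is the departure from the straight trend. Changes with time are thus part of this spread, which does not measure repeat cultures. The labels name no separate cultures or scan batches, so another part may be technical. The number of arrays limits the precision.

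The members and gene lists were chosen with earlier results of these data known, and the 24 h fits after seeing the data. Every member is described; values on all arrays are given for those that passed a fit, for those with the largest differences within a role at 6 or 12 h in time or at 2 to 12 h against BSA, and for all 5 sterol sensors. Other genes are named where a difference passed 2-fold before 24 h, or where they passed the fit of the 24 h BSA array, a rule added later.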

Additional observations from a re-analysis of the deposited data

How the results depend on the processing

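With 8 arrays and no replicate, counts of calls depend on single arrays. Over 4 times TNF-α against BSA gave 3 genes, and 1 with the mean of probe sets, 62 with array quality weights, 5 with a variance trend and 67 (with 1 member) without the 24 h TNF-α array; leaving out 1 time gave 0 to 67 genes and 0 to 1 members. Over 2 to 12 h it gave 67 genes, 36 with the mean of probe sets and 160 with a variance trend; members numbered 0 after centring, and leaving out 1 time gave 0 to 1094 genes and 0 to 2 members, the second being TM7SF2 without 2 h. The trend in TNF-α gave 1 gene, 0 with the mean of probe sets, centring, weights, all probe sets or a time left out, 2 after quantile normalisation or without the 24 h TNF-α array, and 3 with a variance trend. The 24 h BSA fit gave 1114 genes, 2702 probe sets of 45253 over all probe sets, and 0 to 907 genes and 0 to 12 members with an array or time left out. The 24 h TNF-α fit gave 6379 genes (4331 higher, 2048 lower; 2826 and 2545 after quantile normalisation), 14941 probe sets over all probe sets, and 4022 to 6619 genes with an array or time left out. With the mean of probe sets the TNF-α median at 24 h against 2 h was −1.28, and TNF-α against BSA at 24 h gave 0 members higher, 5 lower and a median of −0.40. At 1.5-fold 21 members were lower in BSA at 24 h, 1 was higher at 12 h, 3 were higher and 1 lower in TNF-α at 12 h, and against BSA 1 was higher at 2 h, 1 lower at 6 h, 1 higher at 12 h, and 7 higher and 7 lower at 24 h. The balance of calls turned in some fits: 508 genes higher and 586 lower over 2 to 12 h without the 2 h pair (58 and 9 with it), and 19 and 25 in the 24 h BSA fit without the 6 h pair (622 and 492 with it). The cause was not tested. The other 256 summary values stayed near their reported value. The labels give no replicate numbers to use as a block; the TNF-α comparisons paired the arrays of the same time. The 2 to 12 h fit was not planned as a main fit, only as a setting of the 4-time comparison without its 24 h pair. The 24 h fits and the alternatives of the 2 to 12 h fit were chosen after seeing the data.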
